A study of Mus musculus with 8 samples.

Results

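The 8 arrays of this study are divided by the number in their titles. Replicates 1 and 2 of both genotypes (4 arrays) are set here against replicates 3 and 4 of both genotypes (4 arrays), which takes in all 8 samples of the series and 22626 probe sets. Whole-brain RNA came from male C57/B6 mice 3 months old, 4 biological replicates of each genotype. BSKO mice carried a brain-specific knockout of SIRT1, a deacetylase that uses NAD, and WT mice were their wild-type littermates. An Affymetrix Mouse430A_2 array was hybridised per RNA sample. The promoter that removes Sirt1 from the brain and the meaning of the replicate numbers are not given in the sources used here, so the numbers are treated as names. The split was chosen because values on these same arrays had been seen to differ along it. Its differences are therefore a description with no test. How they vary with genotype is built from the same pairs and is described too, with counts of calls but no p for a gene.

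Whole-brain RNA is a sum over many regions, and each region has neurons that make transcripts found in few other places. Striatal projection neurons make the signalling proteins that act downstream of dopamine receptors, thalamic neurons are set apart by homeobox and Wnt pathway transcription factors, and the hypothalamus holds small groups of cells that each make large amounts of 1 peptide precursor. The choroid plexus, meninges, pituitary and pineal gland lie in or on the brain and have markers of their own.

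Each probe set had been centred on 0 in the deposited log2 values, which therefore show how arrays differ but hold no expression level. For the same reason the presence of the labelled tissue, or of any marker, could not be checked on its level. A pair difference below is the mean of replicates 1 and 2 minus the mean of replicates 3 and 4 on the log2 scale, and 1 unit is a 2-fold difference. The SD over probe sets was 0.150 to 0.314 on 7 arrays and 0.831 on BSKO 2. There the 5' probe sets of Actb and Gapdh, signs of RNA quality, lay -2.44 and -2.43 from the 3' ones, against -0.104 to 0.489 and -0.0749 to 0.0949 on the other 7. Apart from BSKO 2 these 5' to 3' values overlapped between replicates 1 and 2 and replicates 3 and 4 when the genotypes were pooled. Within WT the pairs overlapped for Actb. For Gapdh they did not, with -0.0019 and 0.050 on WT 1 and 2 and 0.073 and 0.095 on WT 3 and 4. In BSKO, Actb was lower on BSKO 1 (-0.104) than on BSKO 3 and 4 (0.489 and -0.0087). Gapdh on BSKO 1 (-0.027) lay between BSKO 3 and 4 (0.0046 and -0.075). The split is described with BSKO 2 and then without it, where BSKO 1 alone stands for its pair.

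In WT the pairs stood clearly apart. The SD of the difference between 2 arrays was 0.166 for WT 1 and WT 2 and 0.157 for WT 3 and WT 4, but 0.250 to 0.273 for the 4 comparisons across the pairs. Between WT 1 and WT 2 only 5 probe sets were over 2-fold apart and between WT 3 and WT 4 only 3 were, against 151 to 170 across the pairs. In BSKO the arrays did not group this way. BSKO 3 and BSKO 4 differed by 0.314, while BSKO 1 differed from BSKO 4 by 0.310 and from BSKO 3 by 0.387. BSKO 2 differed by 0.816 from BSKO 1, its own partner, and by 0.861 and 0.925 from BSKO 4 and BSKO 3. Across genotypes, BSKO 1 differed by 0.341 and 0.335 from WT 1 and WT 2 but by 0.301 and 0.307 from WT 3 and WT 4. BSKO 3 and BSKO 4 were also nearer WT 3 and WT 4 (0.283 to 0.380) than WT 1 and WT 2 (0.369 to 0.440). BSKO 2 was 0.883 to 0.890 from every WT array. Over all probe sets the arrays thus fell by pair in WT and not in BSKO, where particular transcripts followed the pairs.

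**Figure D1:**
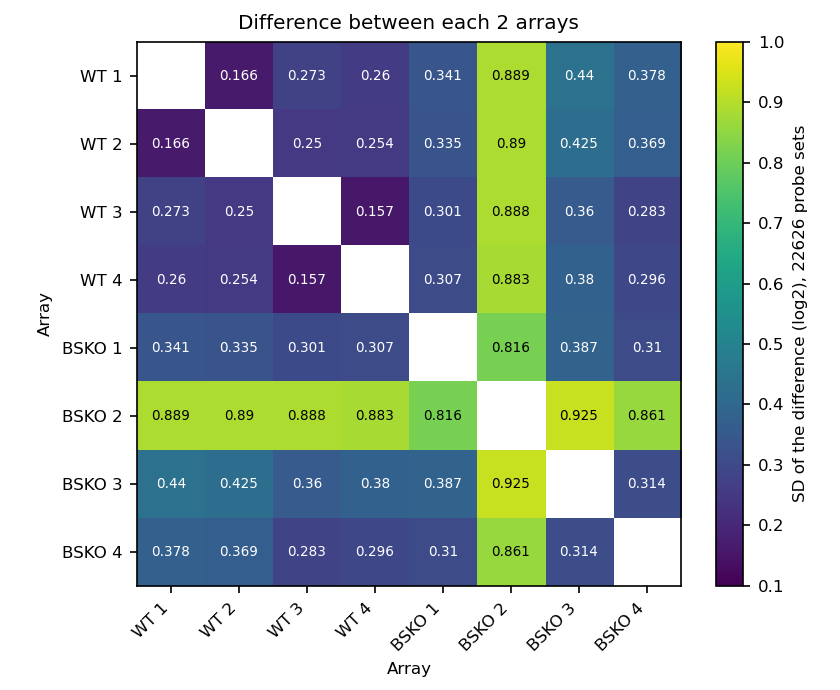
Each cell is the SD, over 22626 probe sets, of the log2 difference between the array in the row and the array in the column, with darker cells for more alike arrays. The darkest cells are WT 1 with WT 2 (0.166) and WT 3 with WT 4 (0.157), and the light row and column are BSKO 2.

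The probe sets called on the lower side of the split include the striatal genes Ppp1r1b and Pde10a, and those called on the higher side include Ebf3, Cbln1, Sncg, Dlk1 and Chrna3. Some that were not called, such as Ido1, Hcrt and Dsp, differed by over 1.5 in both genotypes. With genotype as a term, limma called 16 of 22626 probe sets (0.0707%) at a Benjamini-Hochberg adjusted p under 0.05, 6 of them higher in replicates 1 and 2 (0.0265%) and 10 lower (0.0442%). Without BSKO 2 the same fit called 175 (0.773%), with 52 higher (0.23%) and 123 lower (0.544%), and all 16 were among them. At an unadjusted p under 0.05 there were 1570 (6.94%) with 8 arrays and 2861 (12.6%) without BSKO 2. Limma called 0 probe sets when any WT array, BSKO 3 or BSKO 4 was left out (993 to 1232 at an unadjusted p under 0.05), and 28 were called without BSKO 1. Since the contrast itself was chosen from these values, nothing is read from these counts.

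Across all probe sets the pair difference of WT and that of BSKO, which share no array, had a Pearson r of 0.159, and of 0.213 without BSKO 2. Probe sets are not independent replicates, and r is given as a description. The sign was the same for 53.3% of probe sets, and for 53.9% without BSKO 2. Of the 136 probe sets over 2-fold apart in WT, 106 (77.9%) had the same sign in BSKO, and 100 (73.5%) did without BSKO 2. The sets over 2-fold in the same direction in both genotypes numbered 41, with 20 higher and 21 lower, which is 30.1% of the 136 in WT and 3.04% of the 1349 in BSKO. Without BSKO 2 they numbered 33, or 24.3% of those in WT and 10.5% of the 315 in BSKO. Of the 1349 over 2-fold in BSKO, 859 (63.7%) had the same sign in WT, and without BSKO 2 this held for 217 of 315 (68.9%).

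**Figure D2:**
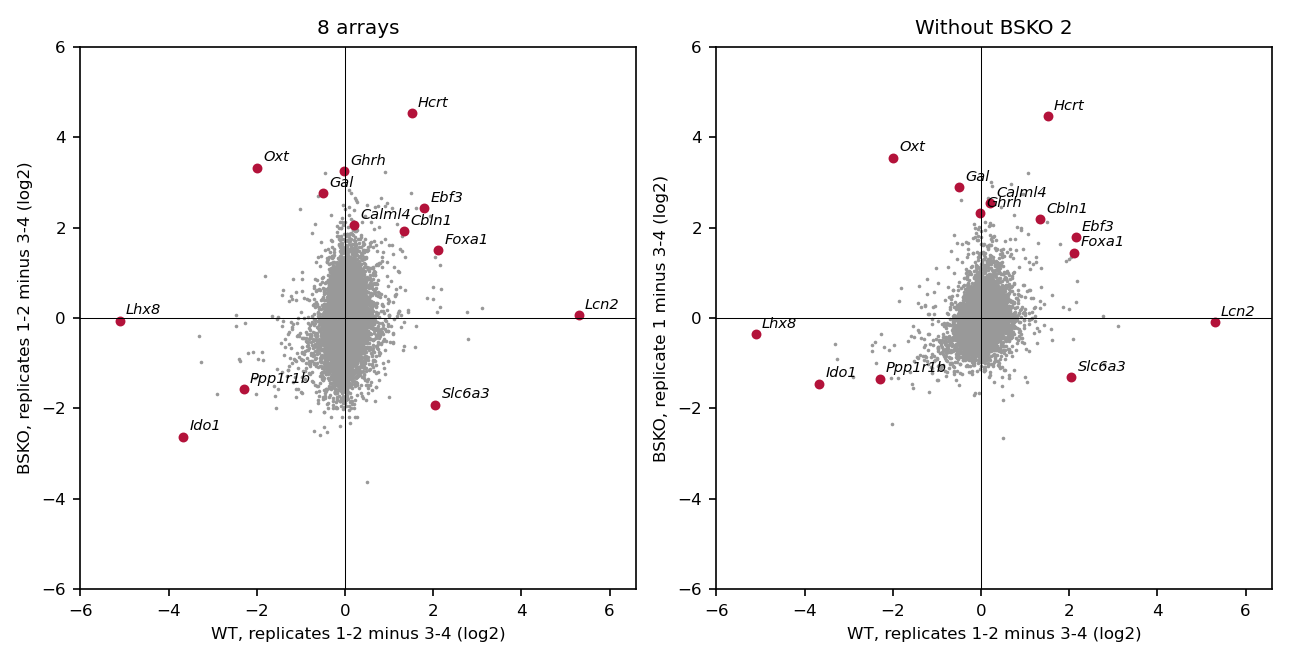
Each point is a probe set, with its pair difference (log2) in WT on the horizontal axis and in BSKO on the vertical axis, for 8 arrays on the left and without BSKO 2 on the right. Points in the lower left and upper right, such as Ppp1r1b, Ido1, Hcrt and Ebf3, had the same direction in both genotypes. Oxt and Slc6a3 had opposite signs. Lcn2 and Lhx8 differed by 5.30 and -5.11 in WT but by only 0.058 and -0.057 in BSKO on 8 arrays. The labelled genes were picked after their values were seen.

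Markers of striatal projection neurons were lower in replicates 1 and 2 in both genotypes. All 11 measured members of the list (of 18 listed) were lower, and for each of the 11 both arrays of the lower pair lay under both arrays of the other pair in WT and again in BSKO. Over all 12393 genes, pairs lay apart and lower in both genotypes for 7.04%. The list's median was -1.64 and -1.61 on WT 1 and 2, -0.071 and -0.074 on WT 3 and 4, 0.081 and -0.14 on BSKO 1 and 2, and 1.12 and 1.03 on BSKO 3 and 4. WT 1 and WT 2 were lowest, BSKO 3 and BSKO 4 highest, and the other 4 arrays lay together near 0. The median pair difference was -1.49 in WT and -0.90 in BSKO (-0.82 without BSKO 2), against 0.0083 and 0.041 over all genes. In bulk tissue, fewer cells of a type and less RNA per cell cannot be told apart.

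Ppp1r1b encodes DARPP-32, the phosphoprotein that relays dopamine signals in these neurons. It read -2.36 and -2.14 on WT 1 and 2, 0.12 and -0.039 on WT 3 and 4, 0.039 and -0.43 on BSKO 1 and 2, and 1.42 and 1.33 on BSKO 3 and 4. Its pair difference was -2.29 in WT and -1.57 in BSKO, with a fitted difference of -1.93 (SE 0.18). Within each genotype the pairs did not overlap, but WT 3 and WT 4 lay next to BSKO 1 rather than next to BSKO 3 and BSKO 4. Pde10a, a phosphodiesterase that breaks down cyclic nucleotides in striatal neurons, showed the same order on all 3 of its probe sets. Probe set 1419389_at read -1.65 and -1.56 on WT 1 and 2, 0.051 and -0.051 on WT 3 and 4, 0.17 and -0.44 on BSKO 1 and 2, and 1.52 and 1.21 on BSKO 3 and 4, and its pair difference was -1.61 in WT and -1.51 in BSKO.

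Ido1, an enzyme that opens the ring of tryptophan, had the widest spread of the list. It read -3.64 and -3.5 on WT 1 and 2, 0.21 and -0.0042 on WT 3 and 4, 0.0042 and -2.34 on BSKO 1 and 2, and 1.38 and 1.53 on BSKO 3 and 4. The low arrays were WT 1 and WT 2, and BSKO 2 stood between them and BSKO 1. The BSKO difference was -2.62, and -1.45 without BSKO 2. Rarb, a retinoic acid receptor, had pair differences of -1.29 in WT and -1.15 in BSKO (-0.64 without BSKO 2). Rasd2, a small GTPase enriched in striatum, had -1.36 and -1.05. The precursor of the dynorphin opioids, Pdyn, had -1.97 and -0.90, and that of the enkephalins, Penk, had -2.10 and -0.75. For both peptide precursors, made in different striatal neurons, the WT difference was more than the BSKO one. Drd2, a dopamine receptor, had -1.22 and -0.67, and Pde1b, another phosphodiesterase, had -0.86 and -0.70. The tachykinin precursor Tac1 differed least, by -0.79 in WT and -0.15 in BSKO. Rgs9, which speeds the shut-off of G protein signals, had a mean difference of -1.49 and -0.78, and its 2 probe sets differed in WT, with -2.39 on 1418691_at and -0.58 on 1426033_at.

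**Figure D3:**
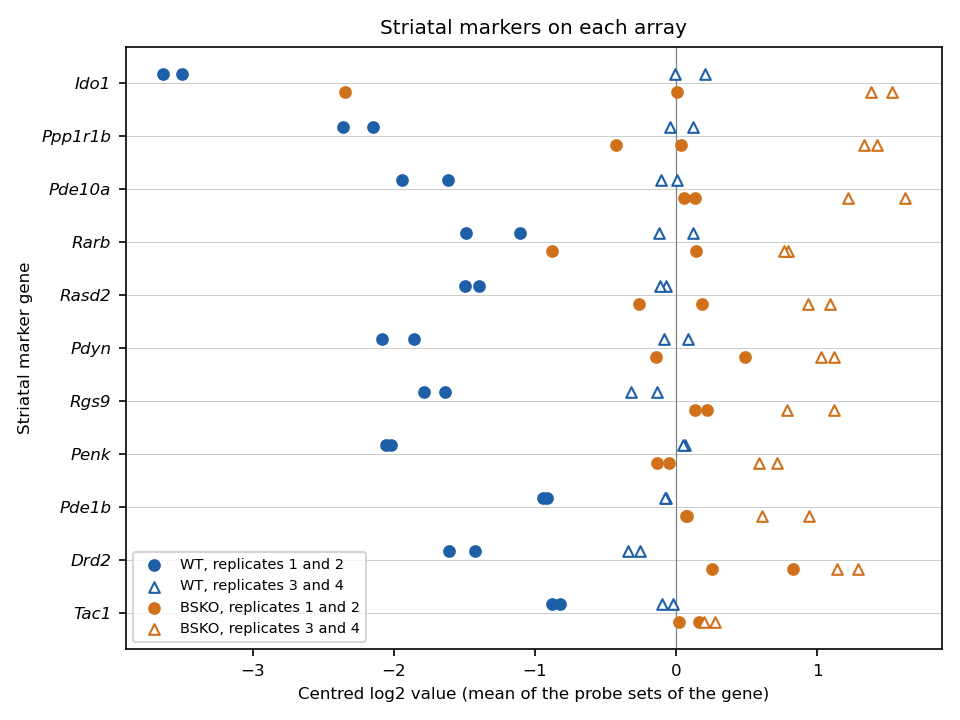
The centred log2 value of each of the 11 measured striatal markers is plotted on the horizontal axis, with 1 point per array (filled circles for replicates 1 and 2, open triangles for 3 and 4, blue for WT and orange for BSKO). In each row the filled circles of a colour lie left of the open triangles of that colour. The blue triangles mostly lie near the orange circles, but BSKO 2 lies away from them for Ido1 (-2.34), Rarb (-0.88) and Drd2 (0.83).

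The other transcripts called on the lower side include several of forebrain neurons. Arpp21, a phosphoprotein regulated by cyclic AMP, read -0.94 and -1.01 on WT 1 and 2, 0.38 and 0.24 on WT 3 and 4, -0.24 and -0.66 on BSKO 1 and 2, and 0.86 and 0.54 on BSKO 3 and 4 on probe set 1451280_at. Its fitted difference was -1.22 (SE 0.13), and its other 2 probe sets were lower too, by less. Kcnj4, an inwardly rectifying potassium channel, differed by -1.12 in WT and -0.96 in BSKO. Rasgrp2, an exchange factor that activates Rap GTPases, differed by -1.13 and -0.93, and the G protein-coupled receptor Gpr83 by -1.25 and -0.88. On these probe sets all 4 were close in size between the genotypes. The other 2 probe sets of Rasgrp2 differed by -0.072 and -0.24 in WT and by 0.74 and 0.71 in BSKO (-0.18 and -0.24 without BSKO 2), so they do not show it lower in BSKO on 8 arrays. The delta subunit of the GABA-A receptor, Gabrd, which forms extrasynaptic receptors, read -0.77 and -0.76 on WT 1 and 2, 0.090 and 0.0058 on WT 3 and 4, -0.0058 and -0.13 on BSKO 1 and 2, and 0.96 and 0.78 on BSKO 3 and 4. Abi3bp, a protein of the extracellular matrix, differed by -1.18 and -1.42 on probe set 1427054_s_at, but by -1.0 in WT and 0.14 in BSKO on 1427053_at (-0.91 without BSKO 2). Cyp2c23, a cytochrome P450, differed by -1.05 and -0.86 on a probe set that can match more than 1 transcript.

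Further probe sets were lower in both genotypes without being called on 8 arrays. For Ctr9, a subunit of the PAF1 transcription complex, 1422679_s_at, which can match more than 1 transcript, read -1.55 and -1.52 on WT 1 and 2, 0.55 and 0.42 on WT 3 and 4, -1.75 and -0.42 on BSKO 1 and 2, and 0.56 and 0.62 on BSKO 3 and 4. Both arrays of each lower pair lay under both of the other pair, but the other 3 probe sets of Ctr9 differed by only -0.029, -0.018 and 0.088 in WT, and by -0.0032, -0.64 and -0.66 in BSKO. Ctr9 as a gene was therefore not shown to be lower in WT. Neu2, a cytosolic sialidase, differed by -1.58 in WT and -1.73 in BSKO, but by only -0.39 in BSKO without BSKO 2. Without BSKO 2 the rule for named genes added Rpe65, the retinoid isomerase of the pigment epithelium, with -1.56 in WT and -1.45 in BSKO, and Krt12, the keratin of the cornea, with -1.11 and -1.21. It also added Dach1, a transcription cofactor of the retina and forebrain, with -0.97 and -1.38, and Cd4, the T cell co-receptor, with -1.0 and -1.37. Otof, the calcium sensor of hair cell synapses, differed by -1.21 and -1.02, and by -0.19 with BSKO 2 included. Although Rpe65 is a gene of the eye, the markers of pineal gland and retina did not lie on the same side as a list. On 8 arrays 2 of 15 were lower in both genotypes and 8 were higher, with medians of 0.064 in WT and 0.30 in BSKO. Without BSKO 2, 3 were lower in both and 6 were higher, and the BSKO median was 0.042.

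Markers of the cortex lay on the same side by much less. Of 13 markers of cortical excitatory neurons, 6 were lower in both genotypes and 0 were higher, where 24.0% of all genes were lower in both and 30.8% were higher. The median difference was -0.11 in WT and -0.33 in BSKO. Lamp5, a membrane protein of upper-layer and interneuron subtypes, differed by -0.50 and -0.55, and the transcription factors Tbr1, Mef2c and Cux1 by -0.19 to -0.43 in WT and -0.47 to -0.67 in BSKO, although 1 of the 6 probe sets of Cux1, 1425611_a_at, was higher in BSKO (0.48). Other cortical factors went the other way in WT: Neurod6, outside the rule and named after its values were seen, was 0.78 in WT and -0.12 in BSKO. Of 9 interneuron markers, 6 were lower in both genotypes. They include the GABA-synthesising enzymes Gad2 (-0.58 and -0.46) and Gad1 (-0.30 and -0.87), the homeobox factor Lhx6 (-0.46 and -0.47) and the peptide gene Npy (-0.77 and -0.36). Without BSKO 2 the BSKO differences of Gad1 and Lhx6 were -0.10 and -0.26. Gad2 and Lhx6 are also expressed in striatum. Of 11 microglial markers 8 were lower in both (72.7%, against 24.0% of all genes), with medians of -0.25 and -0.14. In WT 10 of the 11 lay apart and lower (90.9%, against 23.6% of all genes). The pairs of 4 lay apart and lower in both genotypes (36.4%, against 7.04% of all genes). The complement gene C1qa differed by -0.41 and -0.93, and the receptor genes P2ry12 and Cx3cr1 by -0.29 and -0.25 in WT and -0.78 and -0.27 in BSKO.

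On the higher side, thalamic markers were high in replicates 1 and 2. Of the 10 measured, 9 were higher in both genotypes and 0 were lower in both. The list's median was 0.11 and 0.18 on WT 1 and 2, -0.031 and -0.081 on WT 3 and 4, 0.34 and 0.34 on BSKO 1 and 2, and -0.96 and -0.44 on BSKO 3 and 4. The pairs of the median did not overlap in either genotype, but the difference was small in WT (0.19) and larger in BSKO (1.12), where BSKO 3 was lowest. Averaged over genotypes it was 0.65, and 0.28 without BSKO 3. The pairs of 5 markers lay apart in both genotypes on 8 arrays and those of 8 did without BSKO 2, against 7.86% and 12.8% of all genes.

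Gbx2, a homeobox factor needed to form the thalamus, read 0.46 and 0.29 on WT 1 and 2, -0.33 and -0.29 on WT 3 and 4, 1.90 and 0.88 on BSKO 1 and 2, and -1.66 and -0.47 on BSKO 3 and 4. Tcf7l2, the Wnt pathway factor that marks thalamus and habenula, differed by 0.58 in WT and 1.51 in BSKO as the mean of 4 probe sets, each of them higher in both genotypes. Shox2, another homeobox factor, differed by 0.49 and 1.49, and the troponin gene Tnnt1, a thalamic marker in mouse brain, by 0.22 and 1.29. For Tnnt1 the BSKO difference came from BSKO 3 (-1.99), while BSKO 4 read 0.085. Slc17a6 encodes VGLUT2, the glutamate transporter of synaptic vesicles in thalamic and brainstem neurons. Its probe set 1418610_at read 1.45 and 1.06 on WT 1 and 2, -0.028 and 0.028 on WT 3 and 4, 0.98 and -0.36 on BSKO 1 and 2, and -0.58 and -0.18 on BSKO 3 and 4. In BSKO it separated BSKO 1 from the other 3, and BSKO 2 lay with BSKO 3 and BSKO 4. Its other probe set, 1428379_at, differed by 0.45 in WT and 1.32 in BSKO (1.5 without BSKO 2), so there BSKO 2 lay with BSKO 1. Calb2, the calcium-binding protein calretinin, is abundant in thalamic midline, olfactory bulb and other neurons and was on the olfactory list. It read 0.33 and 0.40 on WT 1 and 2, -0.33 and -0.44 on WT 3 and 4, 1.02 and 1.39 on BSKO 1 and 2, and -1.51 and -1.02 on BSKO 3 and 4. Of the 9 olfactory markers, Calb2 included, 3 were higher in both genotypes. The list's median difference was -0.055 in WT and 0.46 in BSKO (0.36 without BSKO 2), where 8 of 9 were higher.

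Chrna3, the alpha-3 subunit of nicotinic acetylcholine receptors, is a marker of the medial habenula. It read 0.28 and 0.35 on WT 1 and 2, -0.99 and -0.61 on WT 3 and 4, 0.66 and 0.72 on BSKO 1 and 2, and -0.60 and -0.28 on BSKO 3 and 4 on probe set 1452010_at. All 4 arrays of replicates 1 and 2 were above 0 and all 4 of replicates 3 and 4 were below it, whatever the genotype. Irx2, a homeobox gene, differed by 2.17 in WT and 0.64 in BSKO. Of the other 3 habenular markers, Chrnb3 and Chrnb4 were higher in both by 0.08 to 0.43, and Tac2, outside the rule, had -1.22 in WT and 0.50 in BSKO.

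Cbln1, the synaptic organiser cerebellin 1, was higher on all 3 of its probe sets. On 1423287_at it read 0.73 and 0.83 on WT 1 and 2, -0.59 and -0.51 on WT 3 and 4, 1.06 and 0.51 on BSKO 1 and 2, and -1.16 and -1.12 on BSKO 3 and 4. Replicates 1 and 2 of both genotypes lay above replicates 3 and 4 of both, with a fitted difference of 1.63 (SE 0.17). Cbln1 is made by cerebellar granule cells and also in thalamus and other nuclei. The cerebellar list moved with it by much less. Of 14 markers, Cbln1 included, 8 were higher in both genotypes (57.1%, against 30.8% of all genes). Only the pairs of Cbln1 lay apart in both on 8 arrays (7.14%, against 7.86% of all genes). The median difference was 0.12 in WT and 0.16 in BSKO, and Gabra6, a receptor subunit of granule cells outside the rule, differed by 0.15 and 0.10.

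The other transcripts called on the higher side were Ebf3, Sncg and Dlk1. Ebf3, a transcription factor of the early B cell factor family, read 1.64 and 1.45 on WT 1 and 2, -0.61 and -0.38 on WT 3 and 4, 0.42 and 0.38 on BSKO 1 and 2, and -1.06 and -0.83 on BSKO 3 and 4 on probe set 1460666_a_at. Its other 2 probe sets differed by 1.80 and 2.15 in WT and by 2.43 and 1.18 in BSKO. Sncg, gamma-synuclein, read 0.60 and 0.66 on WT 1 and 2, -0.61 and -0.64 on WT 3 and 4, 0.56 and 1.13 on BSKO 1 and 2, and -0.79 and -0.56 on BSKO 3 and 4. Dlk1, an imprinted gene for a membrane protein related to Notch ligands, read 0.31 and 0.48 on WT 1 and 2, -0.93 and -1.01 on WT 3 and 4, 0.71 and 1.23 on BSKO 1 and 2, and -0.31 and -0.47 on BSKO 3 and 4. Its probe set, 1449939_s_at, can match more than 1 transcript. For Sncg the 4 arrays of replicates 1 and 2 were all above the other 4, and BSKO covered a wider range than WT. For Dlk1 all 4 were above the other 4 too, and the nearest arrays were WT 1 and BSKO 3.

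Other probe sets were higher in both genotypes without being called on 8 arrays, several of them for developmental transcription factors. Foxa1, a forkhead factor of midbrain neurons, read 2.01 and 1.89 on WT 1 and 2, -0.35 and 0.015 on WT 3 and 4, -0.015 and 0.092 on BSKO 1 and 2, and -2.63 and -0.30 on BSKO 3 and 4. Its WT pairs stood far apart, while in BSKO the difference of 1.5 came mainly from BSKO 3. Lhx1, a LIM homeobox factor, differed by 1.5 in WT and 2.76 in BSKO, again with BSKO 3 lowest (-2.42), and by 0.71 and 0.77 on its other probe set. Irx3 and Irx5, members of the Iroquois homeobox family, differed by 1.30 and 1.18 in WT and by 1.48 and 2.08 in BSKO. Prph, the intermediate filament peripherin of peripheral and motor neurons, differed by 0.99 and 1.62 on probe set 1422530_at, and its other 3 probe sets by -0.07 to 0.23 in WT and 0.16 to 0.31 in BSKO. Asb4, a subunit of ubiquitin ligases, differed by 1.06 and 2.44, with BSKO 1 highest at 2.48. Lrp2, the endocytic receptor megalin, differed by 0.85 and 1.47 on one probe set and by 0.21 and 0.72 on the other, and Bbox1, the last enzyme of carnitine synthesis, by 0.78 and 1.21. Dsp, the desmosomal protein desmoplakin, differed by 1.93 and 2.27 on probe set 1435493_at, but by 0.01 and 0.62 on 1427610_at.

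Hox genes, which stay active in hindbrain and spinal cord, were mostly higher in replicates 1 and 2. Of the 13 markers of hindbrain and spinal cord, 10 were higher in both genotypes and 0 were lower, and the pairs of 6 lay apart in both (46.2%, against 7.86% of all genes). The list's median was 0.25 and 0.20 on WT 1 and 2, -0.023 and -0.17 on WT 3 and 4, -0.0050 and 0.22 on BSKO 1 and 2, and -0.15 and -0.024 on BSKO 3 and 4. The median difference was 0.31 in WT and 0.28 in BSKO, and 0.14 in BSKO without BSKO 2. Hoxb5 read 1.48 and 1.60 on WT 1 and 2, -0.21 and -0.44 on WT 3 and 4, 0.024 and 0.41 on BSKO 1 and 2, and -0.42 and -0.024 on BSKO 3 and 4. WT 1 and WT 2 stood far above all others, and BSKO 2 was next. Hoxa3, Hoxa4 and Hoxb3 differed by 0.36 to 0.64 in WT and 0.39 to 0.47 in BSKO, but in BSKO without BSKO 2 by only 0.08 to 0.29. The largest WT difference, of Hoxc4 (2.77, named after its values were seen), had no like difference in BSKO (0.13).

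Markers of the choroid plexus, which makes cerebrospinal fluid, were higher in both genotypes for 10 of 12 genes and lower in both for 0. Their median was 0.052 and 0.054 on WT 1 and 2, -0.081 and -0.10 on WT 3 and 4, 0.50 and 0.16 on BSKO 1 and 2, and 0.073 and -2.0 on BSKO 3 and 4. The WT pairs did not overlap but were close, with a difference of 0.20. In BSKO the difference of 1.18 came from BSKO 4, on which the list was far below all 7 other arrays. Averaged over genotypes it was 0.77, and 0.16 without BSKO 4. Aqp1, the water channel of this epithelium, read -0.013 and 0.013 on WT 1 and 2, -0.37 and -0.34 on WT 3 and 4, 0.82 and 0.90 on BSKO 1 and 2, and 0.61 and -2.02 on BSKO 3 and 4. Folr1, a folate receptor, read 0.21 and 0.47 on WT 1 and 2, -0.31 and -0.37 on WT 3 and 4, 0.74 and -0.21 on BSKO 1 and 2, and 0.69 and -2.06 on BSKO 3 and 4, and the homeobox factor Otx2 read 0.62 and 0.44 on WT 1 and 2, -0.13 and -0.14 on WT 3 and 4, 0.68 and -0.29 on BSKO 1 and 2, and 0.13 and -1.82 on BSKO 3 and 4. In each of these 3 genes BSKO 4 was the lowest array, and BSKO 3 was not low. Kl, which encodes klotho, differed by 0.32 in WT and 0.62 in BSKO.

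Ependymal and motile cilia genes were higher in both genotypes for all 5 measured markers. Their median was 0.054 and 0.029 on WT 1 and 2, -0.029 and -0.16 on WT 3 and 4, 0.82 and 0.95 on BSKO 1 and 2, and 0.016 and -0.51 on BSKO 3 and 4. BSKO 1 and BSKO 2 were both high, so the BSKO difference of 1.33 did not rest on 1 array, while the WT difference was 0.17. Tekt1, a filament protein of cilia, differed by 0.19 and 1.27, and Mlf1 by 0.23 and 1.46. Foxj1, the master factor of motile cilia, differed by 0.17 and 0.13, and by 0.77 in BSKO without BSKO 2. Rsph1, a radial spoke protein, differed by 0.041 and 1.73 (0.99 without BSKO 2).

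**Figure D4:**
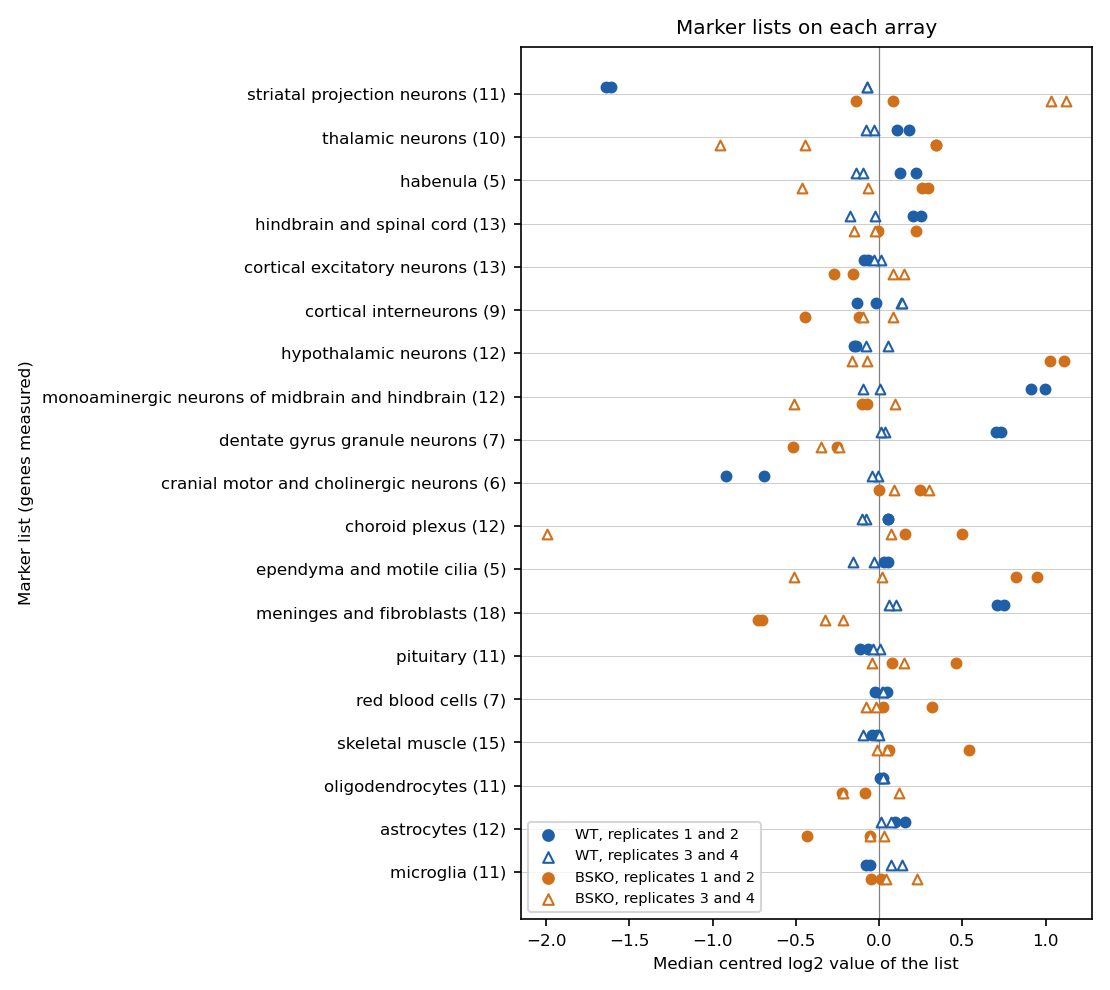
The median centred log2 value of each marker list is plotted for every array (filled circles for replicates 1 and 2, open triangles for 3 and 4, blue for WT and orange for BSKO), with the number of measured genes in brackets. Striatal markers stand apart by pair in both genotypes (0.081 and -0.14 against 1.12 and 1.03 in BSKO), hypothalamic markers are high on BSKO 1 and 2, monoaminergic and dentate markers on WT 1 and 2, and BSKO 4 stands apart in choroid plexus at -2.0.

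For other groups the pair differences of WT and BSKO were unlike in size or sign. Monoaminergic markers of midbrain and hindbrain had a median of 0.99 and 0.91 on WT 1 and 2, 0.0025 and -0.10 on WT 3 and 4, -0.10 and -0.073 on BSKO 1 and 2, and -0.51 and 0.10 on BSKO 3 and 4. The median pair difference was 1.05 in WT and -0.025 in BSKO. Th, the first enzyme of dopamine synthesis, read 1.78 and 1.67 on WT 1 and 2, -0.37 and -0.48 on WT 3 and 4, 0.11 and -0.11 on BSKO 1 and 2, and -1.14 and 0.65 on BSKO 3 and 4, and Slc6a4, the serotonin transporter, differed by 2.01 in WT and 0.42 in BSKO. Ddc, the enzyme that follows Th, differed by 1.37 and 0.63. Slc6a3, the dopamine transporter, chosen after its values were seen, read 2.02 and 2.08 on WT 1 and 2, 0.0033 and -0.0033 on WT 3 and 4, -3.19 and -4.41 on BSKO 1 and 2, and -4.73 and 0.96 on BSKO 3 and 4. It was low on 3 of the 4 BSKO arrays and not on BSKO 4, which cuts across the split.

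Dentate gyrus markers had a median pair difference of 0.67 in WT, where all 7 lay apart and higher (against 28.0% of all genes), and 0.048 in BSKO. Of the 7, 4 were higher in both genotypes (57.1%, against 30.8% of all genes). Dsp, also on the list of keratinised epithelium, differed by 1.31 and 1.19 as the mean of 3 probe sets. Only its pairs lay apart in both on 8 arrays (14.3%, against 7.86% of all genes). Those of 3 markers did without BSKO 2 (42.9%, against 12.8%). Tdo2 differed by 0.51 and 0.44, and by 0.057 in BSKO without BSKO 2. Prox1, the homeobox factor of granule cells, read 0.72 and 0.77 on WT 1 and 2, 0.038 and -0.038 on WT 3 and 4, 0.34 and -1.78 on BSKO 1 and 2, and -0.59 and -0.29 on BSKO 3 and 4. It was high on WT 1, WT 2 and BSKO 1, and BSKO 2 was the lowest array. Cholinergic markers were split in their direction. Slc18a3 and Slc5a7, the vesicular acetylcholine and the choline transporter, were lower in both genotypes, by -0.88 and -0.96 in WT and -0.52 and -0.44 in BSKO, and mark striatal interneurons as well as motor neurons. Mnx1, a motor neuron factor, differed by 0.070 and 0.17.

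Genes of the hypothalamic list were mostly high on BSKO 1 and BSKO 2 and, apart from Hcrt and Hdc, not on WT 1 and WT 2. Avp, outside the rule, read only 0.056 and 0.58 on BSKO 1 and 2, against 0.44 and 0.23 on WT 3 and 4. The list of 12 had a median of -0.15 and -0.14 on WT 1 and 2, 0.054 and -0.077 on WT 3 and 4, 1.03 and 1.11 on BSKO 1 and 2, and -0.072 and -0.16 on BSKO 3 and 4. The median difference was -0.19 in WT and 1.36 in BSKO (0.57 averaged over genotypes, and 0.27 with quantile normalization), and in BSKO 11 of the 12 lay apart and higher, against 24.2% of all genes. Hcrt, the precursor of the orexins of the lateral hypothalamus, read 0.67 and 0.81 on WT 1 and 2, -0.67 and -0.87 on WT 3 and 4, 1.5 and 1.62 on BSKO 1 and 2, and -3.51 and -2.44 on BSKO 3 and 4. It was the largest difference of the split in BSKO among the named genes (4.54), with 1.51 in WT, and it was as large without BSKO 2 (4.48). Hdc, which makes histamine in the tuberomammillary nucleus, differed by 0.93 and 1.35. The factors Otp and Nr5a1 differed by 0.073 and 0.056 in WT and 0.17 and 0.68 in BSKO.

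Meningeal and fibroblast genes had opposite pair differences in the genotypes. The median of 18 genes was 0.71 and 0.75 on WT 1 and 2, 0.10 and 0.056 on WT 3 and 4, -0.73 and -0.70 on BSKO 1 and 2, and -0.33 and -0.22 on BSKO 3 and 4. All 18 lay apart and higher on WT 1 and 2, against 28.0% of all genes, with a median of 0.55. In BSKO 10 lay apart and lower, against 18.8% of all genes, with a median of -0.53. Among the 3 higher in both, the collagen gene Col3a1 differed by 0.66 and 0.52 and Cyp1b1, a cytochrome P450, by 0.52 and 0.28 as the mean of 3 probe sets, of which 1432081_at was lower in WT (-0.22), and for Col3a1 the BSKO difference was -0.034 without BSKO 2. On the list's median WT 1 and WT 2 were thus the highest arrays and BSKO 1 and BSKO 2 the lowest.

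The pituitary list had small pair differences in its median (-0.040 in WT and 0.26 in BSKO), but 2 of its hormones split WT. Growth hormone, Gh, read -0.35 and -0.23 on WT 1 and 2, 2.04 and 2.34 on WT 3 and 4, -0.67 and 0.29 on BSKO 1 and 2, and -0.63 and 0.49 on BSKO 3 and 4 as the mean of 4 probe sets, and prolactin, Prl, read -0.22 and -0.17 on WT 1 and 2, 2.06 and 2.07 on WT 3 and 4, -0.29 and 0.17 on BSKO 1 and 2, and -0.25 and 0.37 on BSKO 3 and 4. Both were higher on WT 3 and WT 4 than on the other WT arrays, with pair differences of -2.48 and -2.26, and neither was as high on any BSKO array. Tshb and Fshb, the beta subunits of thyrotropin and follitropin, differed by 0.17 and 0.057 in WT. Markers of red blood cells, skeletal muscle, bone and cartilage, smooth muscle, endothelium and oligodendrocytes had medians within 0.13 of 0 in WT. In BSKO their medians lay between -0.22 and 0.34 with BSKO 2 and between -0.23 and 0.06 without it. Although the endothelial medians were small, 8 of 12 endothelial genes lay apart and higher in WT (66.7%, against 28.0% of all genes). In BSKO 5 of the 12 lay apart and lower (41.7%, against 18.8% of all genes). Of 14 genes of keratinised epithelium 9 were higher in both genotypes, with medians of 0.13 and 0.36, led by Dsp and by Krt5 (0.42 and 0.38, or 0.074 without BSKO 2) and Krt4 (0.35 and 0.51), while Krt10 was lower in both (-0.48 and -0.27).

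Lists of genes that respond to handling or time of day had small or mixed medians. The immediate early genes had a median of -0.18 in WT and -0.23 in BSKO without BSKO 2, but 0.42 with it. In WT 10 of the 12 lay apart and lower (83.3%, against 23.6% of all genes), and in BSKO 0 did (against 18.8%). Without BSKO 2 the pairs of 3 lay apart and lower in both genotypes (25%, against 10.5% of all genes). Fosb, an induced transcription factor, differed by -0.77 in WT and -0.40 in BSKO. The 15 circadian clock genes had medians of -0.051 and -0.18, and the 11 heat shock chaperones had 0.048 and -0.034. Their part in the other differences was not tested.

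The interaction is the pair difference of BSKO minus that of WT, and is above 0 where the BSKO difference is the higher in value. The pairs were chosen on these arrays, where WT 1 and 2 stand apart from WT 3 and 4, so its p-values are not independent of that choice and calls are given only as counts. With 8 arrays, limma called 4 of 22626 probe sets (0.0177%), 3 with an interaction above 0 (0.0133%) and 1 below 0 (0.00442%), and 1094 (4.84%) had an unadjusted p under 0.05. Lcn2, a secreted iron-siderophore carrier of the innate immune response, read 5.14 and 5.15 on WT 1 and 2, -0.32 and 0.0090 on WT 3 and 4, -0.15 and 0.13 on BSKO 1 and 2, and -0.13 and -0.0090 on BSKO 3 and 4. Its interaction was -5.24 (SE 0.25). It was high on WT 1 and WT 2 only, and the other 6 arrays lay between -0.32 and 0.13. Lhx8, a LIM homeobox factor of forebrain cholinergic neurons, read -5.13 and -5.09 on WT 1 and 2, -0.016 and 0.016 on WT 3 and 4, -0.26 and 0.32 on BSKO 1 and 2, and 0.15 and 0.026 on BSKO 3 and 4. Here WT 1 and WT 2 were low and the interaction was 5.05 (SE 0.29).

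Oxt, the precursor of oxytocin, had pair differences of opposite sign in the genotypes. It read -2.22 and -1.53 on WT 1 and 2, 0.19 and 0.054 on WT 3 and 4, 3.42 and 2.99 on BSKO 1 and 2, and -0.054 and -0.20 on BSKO 3 and 4. WT 1 and WT 2 were the lowest arrays and BSKO 1 and BSKO 2 the highest, and the interaction was 5.33 (SE 0.37). Chodl, a lectin-like membrane protein, read -0.28 and -0.37 on WT 1 and 2, 0.22 and 0.20 on WT 3 and 4, 1.43 and 1.46 on BSKO 1 and 2, and -0.20 and -0.28 on BSKO 3 and 4, with an interaction of 2.22 (SE 0.18). None of the 4 passed when any WT array, BSKO 3 or BSKO 4 was left out, where limma called 0 probe sets (423 to 1527 at an unadjusted p under 0.05).

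Without BSKO 2 the interaction was called for 42 probe sets (0.186%), 27 above 0 (0.119%) and 15 below 0 (0.0663%), and the 4 were among them. The unadjusted p was under 0.05 for 2260 (9.99%). BSKO 1 was then alone in its cell and was taken to vary like the other arrays. Ppp1r17, a phosphatase regulator of Purkinje and hypothalamic neurons, read -0.19 and -0.24 on WT 1 and 2, 0.29 and 0.19 on WT 3 and 4, 2.14 and 3.35 on BSKO 1 and 2, and -0.46 and -0.48 on BSKO 3 and 4, with an interaction of 3.07. Npvf, the precursor of RFamide peptides of the hypothalamus, read 0.082 and 0.17 on WT 1 and 2, -0.082 and -0.15 on WT 3 and 4, 2.78 and 2.17 on BSKO 1 and 2, and -0.13 and -0.17 on BSKO 3 and 4, with an interaction of 2.69. Both were high on BSKO 1 and, although that fit did not use it, on BSKO 2. Cdh1, E-cadherin of epithelia and meninges, read 1.13 and 1.19 on WT 1 and 2, 0.48 and 0.43 on WT 3 and 4, -2.15 and -1.82 on BSKO 1 and 2, and -0.43 and -0.47 on BSKO 3 and 4, with an interaction of -2.40. It was high on WT 1 and 2 and low on BSKO 1 and 2. With 8 arrays these 3 were not called.

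**Figure D5:**
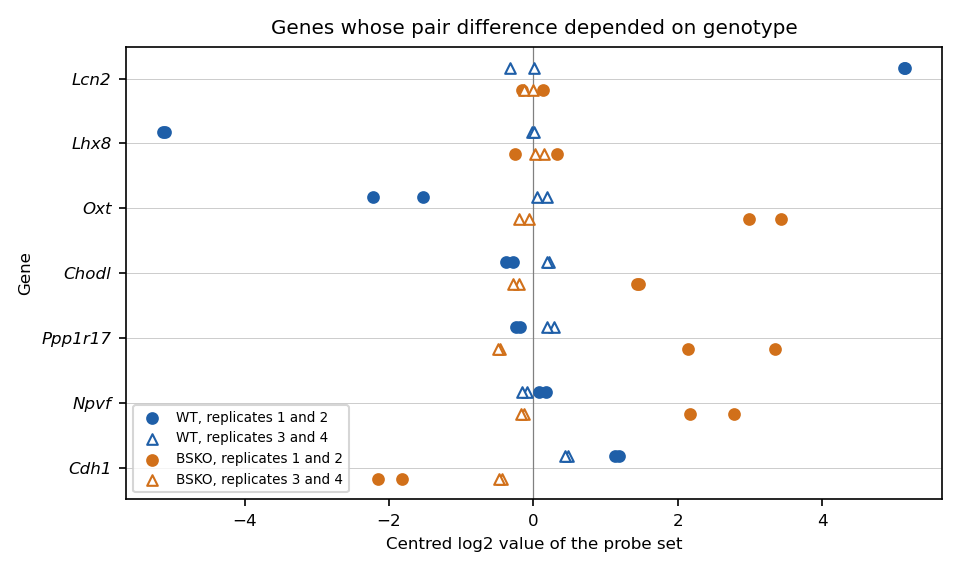
The centred log2 value of each probe set is plotted for every array (filled circles for replicates 1 and 2, open triangles for 3 and 4, blue for WT and orange for BSKO), for the 7 genes named for an interaction. The open triangles lie between -0.48 and 0.48, and the filled circles of 1 or both genotypes do not, at 5.14 and 5.15 for Lcn2 on WT 1 and 2 and at 3.42 and 2.99 for Oxt on BSKO 1 and 2.

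By list, with 1 value per gene and without BSKO 2, the interaction was called for 0.621% of all 12393 genes. It was called for 5 of 12 hypothalamic genes (41.7%), all with an interaction above 0. These 5 are Oxt, Trh, Ghrh, Gal and Cartpt, which encode the peptides oxytocin, thyrotropin-releasing hormone, growth hormone-releasing hormone, galanin and CART, and the last 4 are named here for this call. Gal read -0.58 and -0.40 on WT 1 and 2, 0.12 and -0.12 on WT 3 and 4, 2.75 and 2.5 on BSKO 1 and 2, and 0.22 and -0.52 on BSKO 3 and 4, and Ghrh read -0.12 and 0.091 on WT 1 and 2, 0.069 and -0.069 on WT 3 and 4, 2.06 and 3.89 on BSKO 1 and 2, and -0.090 and -0.45 on BSKO 3 and 4. For both, BSKO 1 and BSKO 2 stood above all other arrays. It was also called for 8 of 18 meningeal and fibroblast genes (44.4%), all with an interaction below 0, among them Slc47a1, an organic cation exporter (0.99 in WT and -1.29 in BSKO), named for this call. Among striatal genes it was called for 3 of 11 (27.3%), Penk, Pdyn and Ido1, with a larger drop in WT than in BSKO. Of 12 monoaminergic genes it was called for 2, Slc6a4 and the nuclear receptor gene Nr4a2 (named for this call), both below 0, and of 7 dentate genes limma called 0, with 4 at an unadjusted p under 0.05. With 8 arrays, 0.0484% of genes were called, and on these 5 lists the calls were Oxt and Cartpt (16.7% of the hypothalamic genes). On other lists the calls were Lhx8 among cranial motor and cholinergic genes (16.7%) and Lcn2 among bone marrow and neutrophil genes (10%). Isl1, a cholinergic list member named after its values were seen, differed by -1.27 and -1.42 in WT on its probe sets 1422720_at and 1450723_at. In BSKO without BSKO 2 these differed by 0.30 and 0.32.

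With the replicate pair as a term, the genotypes differed in 84 of 22626 probe sets by limma (0.371%), 42 higher and 42 lower in BSKO (0.186% each), and 2582 (11.4%) had an unadjusted p under 0.05. Without BSKO 2 the count was 744 (3.29%), with 301 higher (1.33%) and 443 lower (1.96%), and 4777 (21.1%) unadjusted. With genotype alone, 7 were called, all among the 84, so most calls rest on a term chosen on these arrays. When one of the other 7 arrays was left out, limma called 0 to 50 (1427 to 4685 at an unadjusted p under 0.05), with 0 without WT 1, WT 2, WT 4 or BSKO 3, 1 without WT 3, 6 without BSKO 4 and 50 without BSKO 1. With 1 value per gene, 7 of the 11 striatal markers were called, all higher in BSKO (63.6%, against 0.629% of all genes). They are Drd2, Rgs9, Pde10a, Pde1b, Ppp1r1b, Pdyn and Rasd2, and Rarb and Ido1 joined them without BSKO 2 (81.8%, against 4.56%). For Ppp1r1b the genotype difference was 1.70 in both fits, with an SE of 0.18 with the pair term and 0.69 without it. It was called only with that term, which was chosen on these arrays, and its pair difference was -1.93. Where WT 1 and WT 2 or WT 3 and WT 4 were averaged to 1 value, and the BSKO pairs likewise, 1 probe set was called.

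The knocked-out gene, Sirt1, did not follow the split. Its probe set 1418640_at read 0.0041 and -0.0041 on WT 1 and 2, 0.082 and 0.29 on WT 3 and 4, 0.076 and -1.46 on BSKO 1 and 2, and -0.20 and -0.059 on BSKO 3 and 4, and BSKO 2 was the 1 array that stood apart. The part of Sirt1 that was deleted and the part this probe set covers are not given in the sources used here, so it checks no label. Maoa, which encodes a monoamine oxidase, read 0.029 and 0.015 on WT 1 and 2, 0.0055 and -0.0055 on WT 3 and 4, -0.42 and -0.88 on BSKO 1 and 2, and -0.27 and -0.12 on BSKO 3 and 4, with pair differences of 0.022 in WT and -0.45 in BSKO.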

How the data were processed

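Affymetrix Mouse430A_2 arrays of 8 mouse brains were processed by the authors with RMA, per the submitters' processing notes, with no version named there. The authors deposited log2 values for 22690 probe sets. For 22689 of them the median over the 8 arrays was within 1e-05 of 0 (the exception was a Maoa probe set), so the deposited values are centred per probe set. They carry no brightness, and no filter on dim probe sets was possible. Scanner files were not analysed.

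After removal of 64 controls, 22626 probe sets remained. The platform annotation gave 1 gene symbol for 20380, several for 691 and none, or no entry, for 1555. Gene numbers of 20351 matched RefSeq genes of GRCm38.p6, and 0 symbols changed. For list members the value is the mean of the gene's probe sets (12393 genes).

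limma 3.58.1 in R 4.3.3 was fitted to all probe sets (lmFit, eBayes, two-sided) with genotype and replicate pair as terms, and again with their interaction, with Benjamini-Hochberg adjustment and a threshold of 0.05. Labels call the samples biological replicates, and p-values measure only the spread between these arrays. The number of arrays limits the precision. Scripts were tested on simulated data, and figures were drawn with matplotlib 3.10.9.

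The arrays compared, the 33 gene lists and the rule for named genes were chosen with earlier results of these data known. The rule took the 12 genes in each direction with the largest difference shared by both genotypes (called ones first), 6 more in each direction without BSKO 2, up to 4 members of each list by the same size, and up to 6 interaction genes with and 6 without BSKO 2. Alternatives were leaving out each array, quantile normalization, centring each array, array weights, robust eBayes, a replicate block (fixed and random), dropping cross-hybridising probe sets (suffix s or x), other thresholds, 1 value per gene and averaged pairs. A genotype fit without the pair and a quantile-normalized interaction without BSKO 2 were added after seeing the data.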

Additional observations from a re-analysis of the deposited data

Results flagged for a closer look

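The groups of 4 arrays examined here share arrays and mostly hold genes and lists chosen with their values known, so no chance rate applies. Of 148 such groups, 10 held an array far from the other 3. BSKO 2 was that array in 7: its SD over probe sets (0.831), the 5' minus 3' value of Gapdh (-2.43), the value of Neu2 (-2.37) and the medians of the lists for pineal gland and retina (0.564), B and T lymphocytes (0.661), skeletal muscle (0.541) and Schwann cells and sensory ganglia (0.637). In each of these 4 lists the other BSKO arrays lay between -0.0925 and 0.0934. BSKO 4 stood apart in the choroid plexus median (-2.0), and BSKO 3 in Foxa1 (-2.63). WT 2 stood apart in the pineal gland and retina median (0.00405), where the other WT arrays lay between -0.0537 and -0.0484.

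Limma called the interaction (the pair difference of BSKO minus that of WT), with pairs that had been chosen on these arrays, for Lcn2 (-5.24, and -5.39 without BSKO 2), Lhx8 (5.05 and 4.76), Oxt (5.33 and 5.55) and Chodl (2.22) on 8 arrays. Without BSKO 2 it was also called for Ppp1r17 (3.07), Npvf (2.69) and Cdh1 (-2.40). The hypothalamic list moved in opposite directions in WT and BSKO: taken from the list's median on each array, the pair difference of BSKO minus that of WT was 1.32. The meningeal and fibroblast genes (-1.09) and endothelial genes (-0.259) did so too by the same measure, which differs from the median of the genes' own differences. These 3 differences between list medians were not tested.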

How the results depend on the processing

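The number of probe sets called depended on the processing more than their differences did. For the split, 16 calls became 43 at an adjusted p under 0.10, 437 with quantile normalization, 837 with array weights, 25 of 12393 genes with 1 value per gene, and 2 with the pairs averaged. For the interaction, 4 calls (3 above 0 and 1 below 0) became 29 with quantile normalization (15 and 14) and 39 with quantile normalization and BSKO 2 left out. For genotype with the pair as a term, 84 calls became 184 at an adjusted p under 0.10, 1362 with quantile normalization, 3469 with array weights, 1 with the pairs averaged and 7 with no pair term. Leaving out 1 array gave 0 to 175 calls for the split, 0 to 10675 for the interaction and 0 to 744 for genotype. The highest interaction count came without BSKO 1, where BSKO 2 was alone in its cell. Averaged pairs leave no residual degrees of freedom for the interaction, which was not fitted. With the replicate number as a fixed block, limma called 0 probe sets in all 3 comparisons, with 1159, 931 and 2121 at an unadjusted p under 0.05. The numbers are not known to pair the samples: same-numbered arrays correlated in their deviations by 0.0858, 0.0562, 0.140 and 0.129, and only WT 4 had its own number as the best match.

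Of the 33 list medians, averaged over genotypes, 27 kept their sign in all 12 alternatives. The 6 others, smooth muscle, red blood cells, lymphocytes, skeletal muscle, immediate early genes and heat shock chaperones, lay within 0.151 of 0. The striatal median stayed between -1.44 and -1.15. Of 38 named genes, 36 kept the sign of their pair difference, averaged over genotypes, in all 10 alternatives. The exceptions were Prox1 (-0.30 without BSKO 1) and Sirt1 (0.011 without BSKO 2, where the fitted difference was -0.028). Signal over background could not be judged on centred values.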
